A study of Mus musculus with 12 samples.

Results

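Aminoacyl-tRNA synthetases were followed at 36 genes of the 15217 genes measured in NIH-3T3, a mouse fibroblast line that the labels give as wild type. The genes were chosen by symbol, by a rule that uses no measured value but was set with earlier results of these data known. Of the 36, 20 were counted as cytosolic and 16, whose symbols end in 2, as mitochondrial. The table listed 35 under their own symbol, and Mars1 was found as Mars, a synonym in RefSeq. The study asked how the place of the SLAM-seq reaction affects the measurement of new RNA. Cells were kept for 2 h with no 4-thiouridine (4sU), with 200 µM or with 800 µM of this uridine analogue, which is built into RNA made during that time. Iodoacetamide then altered the 4sU so that it reads as C, either inside methanol-fixed cells or on purified RNA in tubes. Each of the 6 groups (fixed cells or tubes, at each of the 3 doses) held 2 libraries, A and B. The labels give the tube reaction a temperature and time of its own, and do not say plainly which setting was used on fixed cells. All groups share the same cell line, the iodoacetamide reaction and its quenching with DTT, including the groups without 4sU.

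Each synthetase joins an amino acid to the tRNAs that carry it, which is the step that fixes the genetic code. Cytosolic and mitochondrial translation mostly use enzymes from separate nuclear genes. Gars and Kars are the known exceptions, since each of them serves both compartments. Several cytosolic enzymes sit in a multisynthetase complex, held by the scaffold proteins Aimp1, Aimp2 and Eef1e1. The transcription factor ATF4 is known to raise many cytosolic synthetase genes when amino acids run short, through C/EBP-ATF elements with the core TGATGCAA. 

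The promoter bases around that core are shown because they separate some cytosolic members by sequence rather than by level. RefSeq promoters of build GRCm38.p6, from 250 bases before to 50 bases after the start, were at hand for 27 of the 36 genes, 13 cytosolic and 14 mitochondrial. The core was searched on both strands, as was the looser TGATGNAA, which includes it. The exact core was found in a promoter of 4 of 13 cytosolic genes and 0 of 14 mitochondrial ones, against 1.03% of all 27025 genes in the table. With TGATGNAA, the counts were 5 of 13 cytosolic and 0 of 14 mitochondrial genes, against 4.51% of all. Matches from 4 cytosolic promoters are printed below. The match in each sequence is in capitals, which read TTGCATCA or TTTCATCA where the match is on the opposite strand. Sequences run 5′ to 3′ as in the RefSeq table, at chr13:49682126-49682155 (+) for Iars, chr15:11399659-11399684 (−) for Tars, chr4:129189895-129189924 (+) for Yars and chr6:55037960-55037989 (+) for Gars.
Iars: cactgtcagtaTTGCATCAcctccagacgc
Tars: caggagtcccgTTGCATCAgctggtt
Yars: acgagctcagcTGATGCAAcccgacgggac
Gars: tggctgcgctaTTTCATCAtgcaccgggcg
The match began 30 bases before the annotated start in Gars and 15 in Tars, and lay past the start in Iars and Yars. These motifs were chosen with results of these data known, and a match is a description of letters, not evidence of binding. Of these genes, Tars loads threonine and Gars loads glycine. Aars also held the exact core. All of the genes with a match come up again below, and a link of the motif to their levels or ratios was not tested.

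Library totals ranged from 3629634 to 7762635 counts, and the 36 genes together took 0.381% to 0.42% of a library. All 36 passed the filter on low counts, which kept 11080 genes. The 10 fibroblast markers were all tested, with a summed level of 18897 to 24329 CPM (counts divided by the TMM-scaled library size) in fixed cells and 17321 to 20443 CPM in tubes. None of the epithelial, endothelial or neural markers passed the filter. Of 4 blood markers 2 passed, Cd68 and Cd14, with a summed list level of 11.4 to 15.2 CPM in fixed cells and 7.73 to 15.9 CPM in tubes, and of 3 muscle markers 1 passed, Acta1, with 0.267 to 2.59 CPM in fixed cells and 0.512 to 4.73 CPM in tubes. Library A of the fixed 800 µM group stood apart, with a position of −45.4 on the first principal component and a scaling factor of 0.835, against −34.8 to −21.4 and 0.926 to 1.01 in the other fixed libraries. Results that turn on it are given with and without it, or by library. Whether A and B came from separate cultures is not stated by the labels, so the p-values reflect the spread of these libraries alone, which may be technical.

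Cytosolic synthetase RNA was far more abundant than mitochondrial synthetase RNA. Levels of different genes were compared per kilobase of the deposited gene length, which takes reads as spread over that length. In bulk libraries, fewer cells with an RNA and less of it per cell cannot be told apart. Without 4sU, the median level of the 20 cytosolic genes was 42.9 CPM per kb in fixed cells and 45.6 CPM per kb in tubes. The median of the 16 mitochondrial genes was 2.76 CPM per kb in fixed cells and 2.89 CPM per kb in tubes. In fixed cells the highest cytosolic levels were those of Rars, the arginyl enzyme, at 167 ± 3.78 CPM per kb (SD, n = 2 libraries here and below), Farsb at 161 ± 0.506 and Farsa at 142 ± 14.7, the most variable of them. Farsa and Farsb encode the 2 kinds of subunit of cytosolic phenylalanyl-tRNA synthetase. In tubes the order began with Farsa at 142 ± 8.5 CPM per kb, Gars at 127 ± 10.8 and Rars at 109.6 ± 0.345. The lowest cytosolic levels in fixed cells belonged to Vars, the valyl enzyme, at 13.9 ± 0.807 CPM per kb, Cars, the cysteinyl enzyme, at 18.9 ± 0.237 and Iars, the isoleucyl enzyme, at 19.5 ± 0.567. In tubes they belonged to Iars at 17.3 ± 0.793 CPM per kb, Cars at 21.4 ± 0.73 and Wars, the tryptophanyl enzyme, at 21.6 ± 1.53, of which the last 2 did not differ beyond their spread.

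Among mitochondrial genes, the highest levels lay near those of the lowest cytosolic ones. Yars2, the tyrosyl enzyme, had 16.7 ± 0.97 CPM per kb in fixed cells and 19.5 ± 1.22 in tubes. Iars2 had 14 ± 0.766 CPM per kb in fixed cells and 13 ± 0.00548 in tubes, and Vars2 had 8.86 ± 2.17 in fixed cells and 15.2 ± 1.12 in tubes. At the low end were Nars2, the asparaginyl enzyme, with 0.717 ± 0.242 CPM per kb in fixed cells and 0.977 ± 0.418 in tubes, and Mars2, the methionyl enzyme, with 1.11 ± 0.0147 in fixed cells and 1.33 ± 0.199 in tubes. Pars2, the prolyl enzyme, had 0.978 ± 0.25 CPM per kb in fixed cells and 2.16 ± 0.714 in tubes, and Ears2, the glutamyl enzyme, 1.33 ± 0.148 in fixed cells and 1.57 ± 0.00475 in tubes. In fixed cells Pars2 and Mars2 did not differ beyond the spread of Pars2. Mars2 is 1 exon of 11294 bases in the annotation, the longest length among the members, and most of it is untranslated.

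Other than Dars, Gars, Kars and Qars, the genes form 17 cytosolic and mitochondrial pairs for the same amino acid, with Eprs, the fused glutamyl and prolyl enzyme, set against both Ears2 and Pars2, and both Fars subunits against Fars2. The cytosolic gene had the higher level per kb in 17 of 17 pairs, in fixed cells and in tubes alike. The ratio of cytosolic to mitochondrial levels per kb had a median of 22.4 in fixed cells, with a range of 1.39 to 109.5, and a median of 21.5 in tubes, with a range of 1.33 to 57.6. Iars and Iars2 were the closest pair, with a ratio of 1.39 in fixed cells and 1.33 in tubes, followed by Vars and Vars2 with 1.56 in fixed cells and 1.63 in tubes. The widest were Farsb against Fars2 in fixed cells, at 109.5, and Farsa against Fars2 in tubes, at 57.6. Exons of Iars2 share 2034 bases with Rab3gap2 and those of Fars2 share 501 bases with Nrn1, each on the opposite strand. Strand use in the counting is not stated in the sources, so reads from such partners cannot be told apart.

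The new-to-total ratio is the authors' estimate of the share of a gene's RNA that was made during labelling. It was deposited for the 8 libraries with 4sU, and its most probable (MAP) value is used here. A background from cells without 4sU was not analysed here. All 20 cytosolic genes had at least 100 counts in each of these libraries, but only 3 mitochondrial ones did, namely Iars2, Vars2 and Yars2. Most cytosolic synthetases had lower ratios than the typical gene. The median of the 20 means over the 8 libraries was 23.2%, and that of the 5532 genes with such counts was 35.3%. By library, the cytosolic median lay between 15.6% and 27.1%, and that of all genes between 26% and 42.3%. 

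At the low end were Lars, the leucyl enzyme, with a mean of 13.5%, Kars, the lysyl enzyme, with 13.6%, and Farsb with 17.7%. Kars was even across libraries, with 11.5% and 12.2% in fixed 800 µM libraries A and B, 15.5% and 12.6% in fixed 200 µM, 13% and 13.7% in tube 800 µM, and 12.7% and 17.4% in tube 200 µM. Lars reached its mean by another route, with 4.14% and 5.58% in fixed 800 µM libraries A and B, 9.61% and 10.4% in fixed 200 µM, 18.3% and 15.2% in tube 800 µM, and 24.9% and 20.3% in tube 200 µM. Every fixed library thus lay below every tube library for Lars. At the high end were Aars, the alanyl enzyme, with a mean of 42.9%, Cars with 40.3% and Farsa with 32.5%. Aars had 36.3% and 46.9% in fixed 800 µM libraries A and B, 47.3% and 44.9% in fixed 200 µM, 42.2% and 41.5% in tube 800 µM, and 41.2% and 42.6% in tube 200 µM. Its fixed and tube libraries overlapped, and library A of the fixed 800 µM group was the lowest. The 0.05 and 0.95 quantiles that the authors give were 32.9% and 39.9% for that library. Exons of Aars share 1326 bases with Exosc6 on the same strand, so its counts and its ratio may hold reads of that gene.

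**Figure D1:**
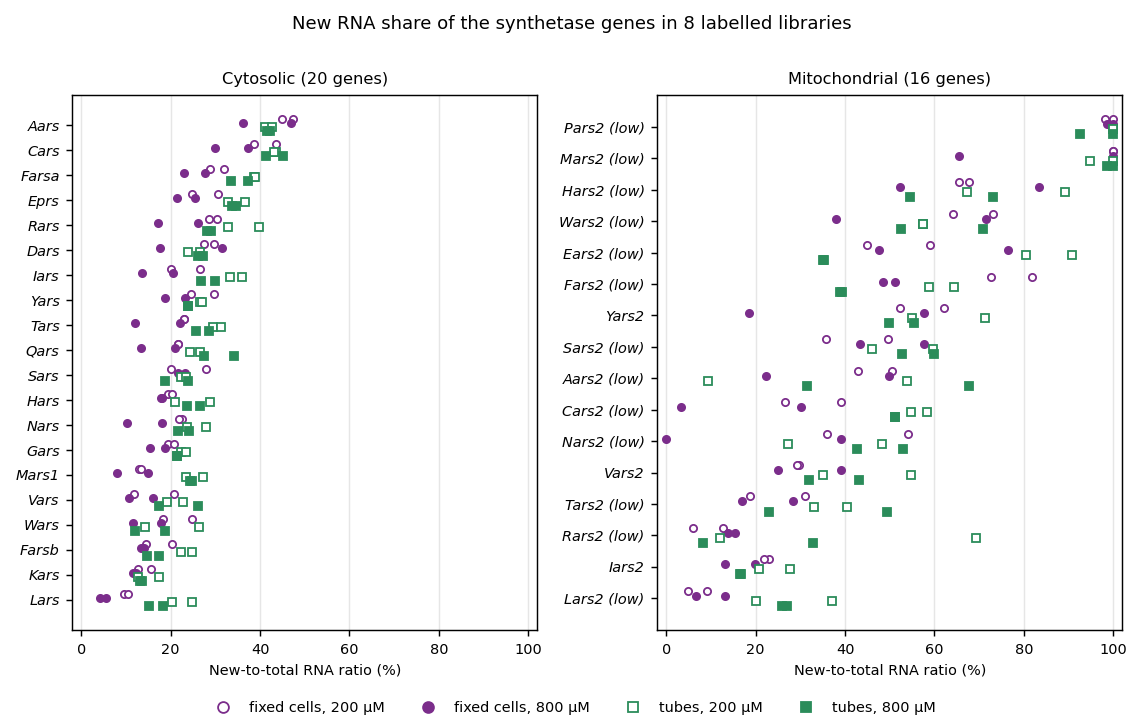
New-to-total RNA ratio in percent (x axis) of the 20 cytosolic and the 16 mitochondrial synthetase genes, ordered by their mean, with a point for each of the 8 labelled libraries and "(low)" beside genes with under 100 counts in some labelled library. Cytosolic means run from 13.5% for Lars to 42.9% for Aars, and mitochondrial ones spread from 18% for Lars2 to 98.7% for Pars2.

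Mitochondrial synthetase RNAs covered a wider range of ratios, mostly on few counts. The lowest means were 18% for Lars2, 19.9% for Iars2 and 21.3% for Rars2, and the highest were 98.7% for Pars2, 94.8% for Mars2 and 69.1% for Hars2. Iars2 had at least 366 counts in every labelled library, with 13.2% and 19.8% in fixed 800 µM libraries A and B, 23% and 22% in fixed 200 µM, 16.7% and 16.4% in tube 800 µM, and 27.7% and 20.7% in tube 200 µM. Mars2 had at least 83 counts and a ratio of 94.7% or more in 7 libraries, but 65.4% in library A of the fixed 800 µM group. Pars2 had as few as 20 counts, and its ratio was 92.6% or more in all 8 libraries. Its MAP value of 100% in fixed 800 µM library A lay above the authors' own 0.95 quantile of 98.7%, with a 0.05 quantile of 59.5%, so the exact share is poorly fixed. In Rars2 the ratio was 69.2% in tube 200 µM library B, against 6.01% to 32.9% in the other 7 libraries. In the same fixed 800 µM library A, Yars2 stood at 18.6%, against 49.9% to 71.3% in the other 7, and Cars2 at 3.27%, against 26.5% to 58.4%. Lars2 ranged from 4.95% in fixed 200 µM library B to 37.2% in tube 200 µM library B.

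The mitochondrial gene of a pair had the higher mean ratio in 13 of 17 pairs, and did so in each of the 8 libraries in 9 of 17. The pairs that held in every library were those of Ears2, Fars2 (against both subunits), Hars2, Mars2, Pars2, Sars2, Vars2 and Wars2. In Vars, at least 347 counts stood behind a mean of 18.1%, and in Vars2 at least 129 counts behind a mean of 36%. Of the pairs with at least 100 counts on both sides, Yars had 24.7% and Yars2 52.8%, with Yars2 higher in 7 of 8 libraries. Iars with 25.9% and Iars2 with 19.9% went the other way, with Iars2 higher in 1 of 8. Rars with 29% and Rars2 with 21.3% also went the other way. The means were close in the remaining pairs of that direction, with 42.9% for Aars and 41% for Aars2, which was higher in 4 of 8 libraries, and with 40.3% for Cars and 39.3% for Cars2, which was higher in 5 of 8. The cytosolic and mitochondrial values of a pair share a library, and the difference in counts, given above, goes with compartment. Its part in the ratios was not tested.

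In the comparison of ratios between procedures, no synthetase passed the test, which was limma on logit ratios with Benjamini-Hochberg (BH) adjustment over 5532 genes at 0.05. At 800 µM, 0 of 23 members with sufficient counts were called, as were 0.0% of all genes, and 9 members had an unadjusted p under 0.05, all lower in fixed cells, against 20.3% of all genes. The direction was shared with most genes: 19 of 20 cytosolic members were lower in fixed cells, as were 82.9% of all genes. The median difference in ratio over the cytosolic members was −7.82 percentage points, and −4.97 over all genes. The smallest p belonged to Lars, with 4.14% and 5.58% in fixed cells against 18.3% and 15.2% in tubes, a difference of −1.38 on the natural logit scale (SE 0.19, limma BH-adjusted p = 0.055). With the authors' posterior mean in place of the MAP value, Lars passed (limma adjusted p = 0.0417), as did 8 genes in all. Next came Mars1, with 7.91% and 15% in fixed cells against 24.7% and 24.2% in tubes (−0.97, SE 0.23, limma adjusted p = 0.119), and Qars, the glutaminyl enzyme, with 13.5% and 21.1% in fixed cells against 27.5% and 34.1% in tubes (−0.78, SE 0.21, limma adjusted p = 0.134). For each of these genes the fixed and tube libraries did not overlap, which picking them by small p makes likely. Without library B of the fixed 800 µM group, so that this group rested on library A alone and was assumed to vary like the others, 10 members passed, all lower in fixed cells, as did 17% of all genes. Among those 10 were Lars, Mars1, Tars, Nars and Qars. Without library A, which stood apart, 0 of 23 members and 0 of 5532 genes passed, with 3 members at an unadjusted p under 0.05, against 13% of all genes.

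At 200 µM, 0 of 23 members passed between fixed cells and tubes, with 0.0% of all genes called, and 3 had an unadjusted p under 0.05, against 19.1% of all genes. Lars again had the smallest p, with 9.61% and 10.4% in fixed cells against 24.9% and 20.3% in tubes (−0.96, SE 0.19, limma adjusted p = 0.0911). Here 15 of 20 cytosolic members were lower in fixed cells, against 69.4% of all genes. Between doses in fixed cells, all 20 cytosolic members were lower at 800 µM than at 200 µM, as were 88.8% of all genes, and 0 of 23 members passed, against 0.0181% of all genes, with 2 at an unadjusted p under 0.05, against 16.6%. Without fixed 800 µM library B, 5 members passed, all lower at 800 µM (Nars, Tars, Lars, Yars2 and Dars), as did 10.6% of all genes. Without library A, 0 of 23 members and 0 of 5532 genes did, with 1 member at an unadjusted p under 0.05, against 8.37% of all genes. In tubes 16 of 20 cytosolic members were lower at 800 µM, against 77.4% of all genes, and 0 of 23 passed, with 0.0% of all genes called and 1 member, Farsb, at an unadjusted p under 0.05, against 8.44% of all genes.

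Without any 4sU, total levels of several synthetases differed between the procedures, as did those of many other genes. Of the 36, 7 were higher and 3 lower in fixed cells (edgeR quasi-likelihood test, BH-adjusted p under 0.05, counts of all 6 groups in 1 fit). That is 27.8% of them, near the 31.4% of the 11080 genes tested, of which 16.2% were higher and 15.2% lower. At an unadjusted p under 0.05 there were 13 members, against 41.3% of all genes. Higher were 6 cytosolic genes, Farsb, Qars, Lars, Hars, Rars and Kars, and the mitochondrial Rars2. Lower were the cytosolic Vars and the mitochondrial Vars2 and Pars2. By compartment, 7 of 20 cytosolic and 3 of 16 mitochondrial genes were called, or 35% and 18.8%. The median log2 fold change was 0.15 for the cytosolic genes and −0.30 for the mitochondrial ones, against −0.01 for all genes. Of the 10 fibroblast markers, 2 were higher and 5 lower in fixed cells in the same test, which is 70% of them, and the part of this in the synthetase differences was not tested.

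Farsb, on chr1:78417975-78488897 on the minus strand with 19 exonic blocks, had 328 and 329 CPM in fixed cells, against 159 and 174 CPM in tubes. It was higher by 0.98 on the log2 scale (SE 0.12, edgeR BH-adjusted p = 1.87e-05). Qars, on chr9:108507706-108515941 on the plus strand, had 133 and 131 CPM in fixed cells, against 68 and 65.8 CPM in tubes, a log2 change of 0.98 (SE 0.13, edgeR adjusted p = 2.61e-05). Lars had 168 and 161 CPM in fixed cells, against 100.5 and 95.1 CPM in tubes, with a log2 change of 0.75 (SE 0.13). Hars, the histidyl enzyme, had 146 and 151 CPM in fixed cells, against 89.2 and 88 CPM in tubes, with a log2 change of 0.74 (SE 0.14). In all of these genes the fixed and tube libraries lay well apart, which picking them by p in these libraries makes likely. Rars had 358 and 347 CPM in fixed cells, against 231 and 232 CPM in tubes, with a log2 change of 0.61 (SE 0.12), and Kars had 325 and 329 CPM in fixed cells, against 225 and 211 CPM in tubes, with a log2 change of 0.59 (SE 0.14). Rars2, a gene of low counts, had 9.76 and 10.2 CPM in fixed cells, against 4.33 and 5.15 CPM in tubes, a log2 change of 1.07 (SE 0.32, edgeR adjusted p = 0.0167).

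On the lower side, Vars had 59.7 and 55 CPM in fixed cells, against 89.9 and 115 CPM in tubes, and fell with a log2 change of −0.84 (SE 0.16, edgeR adjusted p = 0.000723). Vars2 had 46 and 32.4 CPM in fixed cells, against 63.7 and 70.7 CPM in tubes, with a log2 change of −0.78 (SE 0.18, edgeR adjusted p = 0.00311). Both valyl enzymes were thus lower and both arginyl enzymes higher in fixed cells. Pars2 had 2.44 and 3.52 CPM in fixed cells, against 5.05 and 8.12 CPM in tubes, with a log2 change of −1.14 (SE 0.42, edgeR adjusted p = 0.0453). Leaving out each library of the compared groups in turn, the calls of Farsb, Qars, Lars, Hars, Rars, Kars and Vars held in 4 of 4 fits. The call of Vars2 was lost without fixed library B (edgeR adjusted p = 0.0806), that of Pars2 in 3 of 4 fits and that of Rars2 in all 4, with adjusted p up to 0.348 and 0.0938. 

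**Figure D2:**
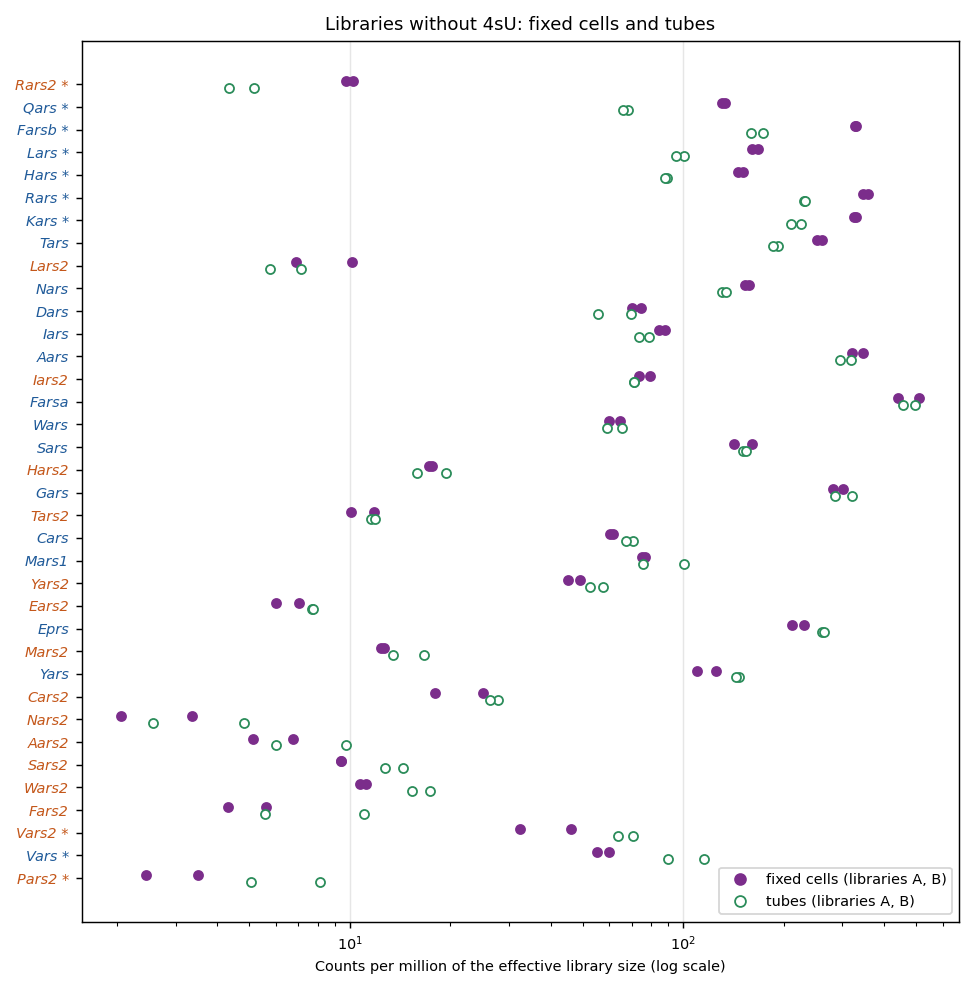
CPM, normalised to TMM-scaled library size (x axis, log scale) of all 36 synthetase genes in the fixed and tube libraries without 4sU, with a point for each library, blue gene labels for cytosolic and orange for mitochondrial genes, and an asterisk at genes past a BH-adjusted p of 0.05. The 7 genes that were higher and the 3 that were lower in fixed cells carry the asterisk, from Rars2 with a log2 change of 1.07 to Pars2 with −1.14.

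The labelled libraries lay on the same side for most of these genes. Among the 8 labelled libraries alone, 9 of the 10 called members did not overlap between fixed cells and tubes, as did 78.1% of the 3480 genes called without 4sU. Over all doses, 6 fixed against 6 tube libraries, 12 of the 36 members did not overlap, against 27.2% of all genes. Of these, 8 were higher, against 13.9% of all genes, and 4 lower, against 13.3%. These were the called genes other than Pars2, together with Tars, which was higher in fixed cells, and Yars and Sars2, which were lower. Farsb ranged from 295 to 329 CPM in fixed cells and from 159 to 209 CPM in tubes. Kars ranged from 325 to 428 CPM in fixed cells and from 205 to 253 CPM in tubes. Vars ranged from 47.1 to 71.2 CPM in fixed cells and from 77.5 to 115 CPM in tubes, and Sars2, the mitochondrial seryl enzyme, from 6.95 to 10.3 CPM in fixed cells and from 12.7 to 19.1 CPM in tubes. Pars2 overlapped, with 2.44 to 8.68 CPM in fixed cells and 5.05 to 8.63 CPM in tubes.

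Gene length moved with these differences. Across genes, Spearman's rho between the log2 fold change of fixed cells over tubes and gene length was −0.416 over the 11080 genes and −0.37 over the 36, as a description, since genes are not replicates. With GC content of each gene's longest annotated transcript rho was −0.101 over the genes that had a value and −0.392 over the 36. The deposited lengths were 1868 bases for Rars2, 1987 for Hars, 2036 for Farsb and 2109 for Rars, all higher in fixed cells, and 4137 for Vars and 4425 for Vars2, both lower. Also higher were Kars with 2419 bases, Qars with 3066 and Lars with 3856. Pars2, with 3046, was lower and did not follow that order. Of the uncalled genes that did not overlap over all doses, Tars with 2636 bases was higher. Yars with 2909 and Sars2 with 1868, the length of Rars2, were lower. The part of length and GC content was not tested, and the place of the reaction cannot be told apart from any difference in its temperature and time. Scaling on 3663 low-ratio genes, those with the least new RNA, shifted the median log2 change of all genes by −0.26 and turned the cytosolic median to −0.12. Under it 5 members were higher and 11 lower, or 16 of 36, against 8.6% of all genes higher and 28.3% lower. The higher ones were Farsb, Qars, Lars, Hars and Rars. The exons of Hars and Hars2 share 195 bases on opposite strands. Also on the opposite strand, Farsb shares 248 with Sgpp2 and Vars2 shares 465 with Gm20483. Among members named in other comparisons, Cars2 shares 422 with Naxd and Mars1 shares 68 with Ddit3. Counts of all these members may include reads of their partners.

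The subunit genes of cytosolic phenylalanyl-tRNA synthetase changed order between the procedures when levels were taken per kb of the deposited lengths, 3341 bases for Farsa and 2036 for Farsb. In CPM, Farsa was above Farsb in all 12 libraries. Farsa had 511 and 441 CPM in fixed cells, against 495 and 455 CPM in tubes without 4sU, while Farsb was higher in fixed cells as given above. Per kb, the ratio of Farsa to Farsb levels was 0.951 and 0.817 in fixed libraries A and B without 4sU, then 0.852 and 0.717 with 200 µM 4sU, then 0.695 and 0.778 with 800 µM. The tube libraries A and B gave 1.9 and 1.59 without 4sU, then 1.65 and 1.67 with 200 µM, then 1.56 and 1.5 with 800 µM. Per kb, Farsb was thus the higher of the pair in all 6 fixed libraries, and Farsa in all 6 tube libraries. The new-to-total ratio of Farsa was higher than that of Farsb in each labelled library, for example 32% against 20.3% in fixed 200 µM library A and 38.6% against 22.4% in tube 200 µM library A. The assembled enzyme holds both subunits, and the RNA levels here say nothing of the protein.

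**Figure D3:**
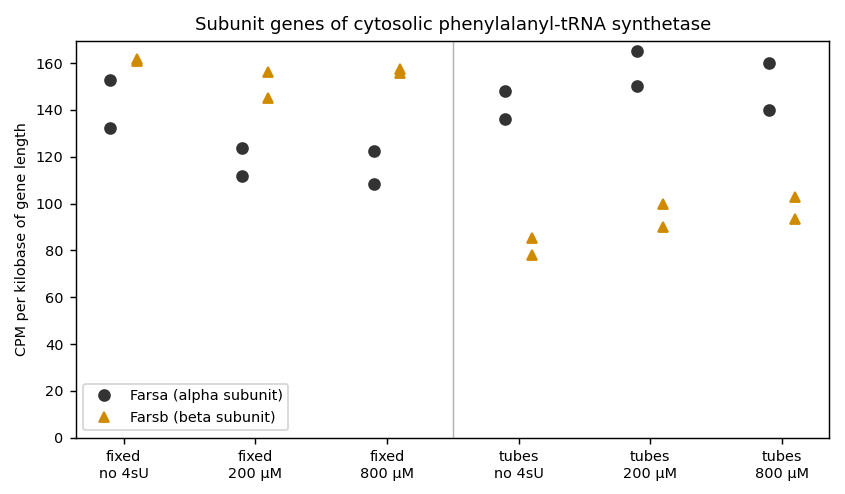
Level of Farsa and Farsb in CPM per kilobase of gene length (y axis) in fixed cells and tubes without 4sU and at 200 and 800 µM 4sU, with a point for each of the 12 libraries. Farsb lies above Farsa in the 6 fixed libraries, where their ratio is 0.695 to 0.951, and below it in the 6 tube libraries, where the ratio is 1.5 to 1.9.

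No synthetase passed the threshold with 4sU against no 4sU, at either dose or in either procedure. In fixed cells 0 of 36 members were called at 200 µM, against 0.812% of all genes, and 0 at 800 µM, against 2.66% of all genes. In tubes 0 of 36 were called at 200 µM, against 3.75% of all genes, and 0 at 800 µM, against 1.87% of all genes. DESeq2 also called 0 in each, among the members to which it gave an adjusted p. In fixed cells these were 29 at 200 µM and 29 at 800 µM, against 1.44% and 6.94% of all genes called. In tubes they were 29 at 200 µM and 35 at 800 µM, against 6.84% and 2.79% of all genes. At an unadjusted p under 0.05 in edgeR, 5 members stood out at each dose in fixed cells and 3 at each dose in tubes, against 12.6% of all genes at 200 µM and 20.1% at 800 µM in fixed cells, and 20.8% at 200 µM and 17.6% at 800 µM in tubes. The median log2 change of the cytosolic members was 0.10 at 200 µM and 0.04 at 800 µM in fixed cells, and 0.11 at 200 µM and 0.05 at 800 µM in tubes. For the mitochondrial members it was −0.01 at both doses in fixed cells, and 0.09 at 200 µM and −0.12 at 800 µM in tubes. Under the scaling on low-ratio genes, which shifted the all-gene median by −0.08 to −0.15, the cytosolic median changed sign in both tube comparisons and at 800 µM in fixed cells.

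In fixed cells at 200 µM the smallest p belonged to Pars2, with 8.68 and 4.6 CPM at 200 µM against 2.44 and 3.52 CPM without 4sU, a log2 change of 1.14 (SE 0.40, edgeR adjusted p = 0.225). Vars2 had 29 and 27.2 CPM at 200 µM against 46 and 32.4 CPM without 4sU, with a log2 change of −0.48 (SE 0.19). Hars2 had 11.9 and 12.8 CPM at 200 µM against 17.6 and 17.3 CPM without 4sU, with a log2 change of −0.50 (SE 0.21). The libraries of each of these genes did not overlap, which picking them by small p makes likely, and none passed after adjustment. At 800 µM Hars2 again stood lower in fixed cells, with 11.9 and 12 CPM against the same 17.6 and 17.3 CPM without 4sU, which both doses share as their control.

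Also at 800 µM in fixed cells, Mars1 had 132 and 81.8 CPM at 800 µM against 77 and 75.1 CPM without 4sU, a log2 change of 0.49 (SE 0.19, edgeR adjusted p = 0.155). Gars had 461 and 305 CPM at 800 µM against 281 and 301 CPM without 4sU, with a log2 change of 0.40 (SE 0.15). Tars had 425 and 264 CPM at 800 µM against 261 and 251 CPM without 4sU, with a log2 change of 0.42 (SE 0.17). In each of these genes library A alone was far above the cells without 4sU. Without library B, so that the 800 µM group rested on library A, the log2 changes were 0.73 for Tars, 0.67 for Gars and 0.79 for Mars1. Library B, with 81.8 CPM for Mars1, 305 for Gars and 264 for Tars, lay just above the libraries without 4sU.

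In tubes at 200 µM, Aars had 384 and 395 CPM at 200 µM against 295 and 319 CPM without 4sU, a log2 change of 0.34 (SE 0.12, edgeR adjusted p = 0.111). Qars had 85.1 and 85.2 CPM at 200 µM against 68 and 65.8 CPM without 4sU, with a log2 change of 0.35 (SE 0.13). Eprs had 226 and 187 CPM at 200 µM against 261 and 263 CPM without 4sU, with a log2 change of −0.35 (SE 0.13). At 800 µM in tubes, Hars had 127 and 107 CPM at 800 µM against 89.2 and 88 CPM without 4sU, a log2 change of 0.40 (SE 0.14, edgeR adjusted p = 0.133). Cars2, the mitochondrial cysteinyl enzyme, had 19.5 and 20.6 CPM at 800 µM against 27.9 and 26.3 CPM without 4sU, with a log2 change of −0.43 (SE 0.20), and Farsb had 209 and 190 CPM at 800 µM against 159 and 174 CPM without 4sU, with 0.26 (SE 0.12). None of these passed. The libraries of each gene lay apart, but the genes were picked by small p in these libraries, which makes that likely.

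**Figure D4:**
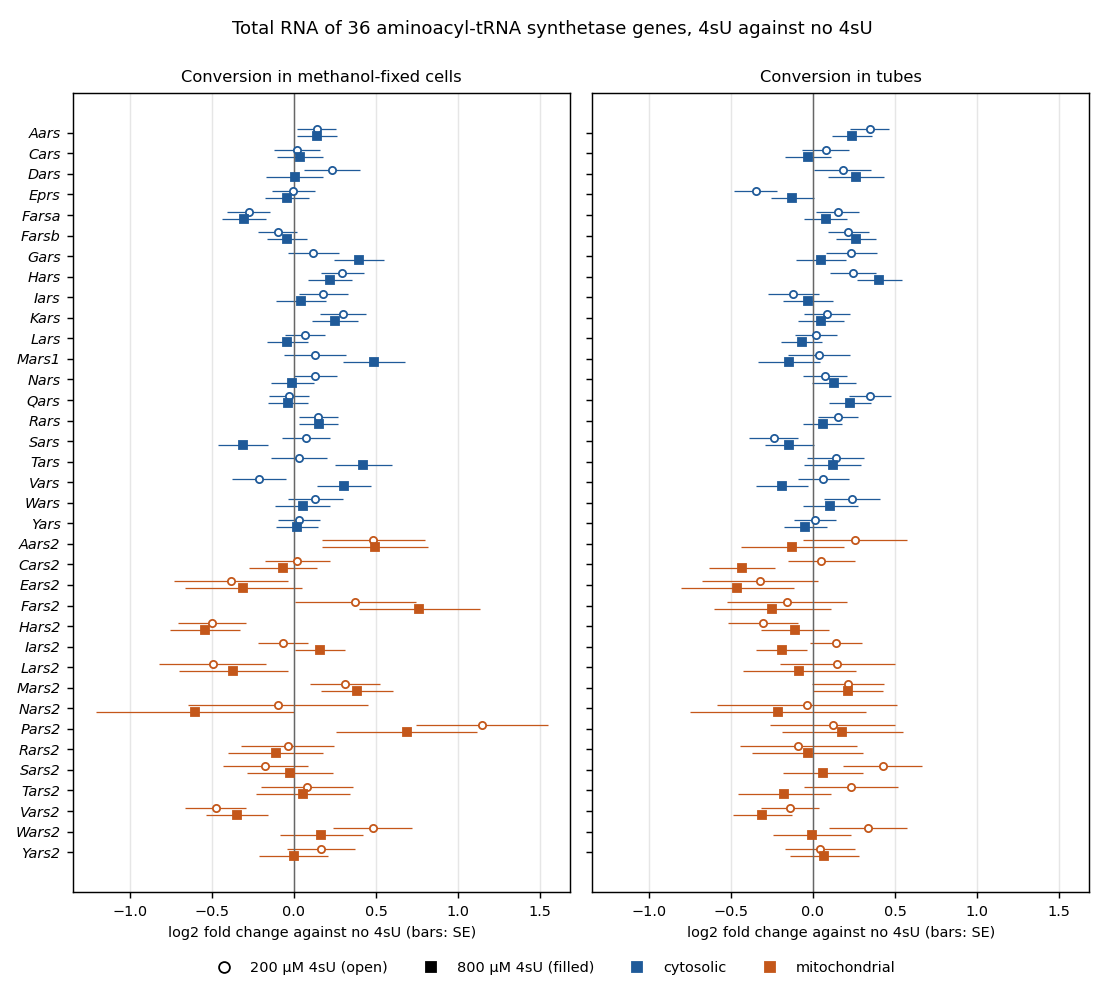
Log2 fold change of each of the 36 synthetase genes against cells without 4sU (x axis, bars are standard errors of the edgeR fit), in fixed cells and in tubes, at 200 and 800 µM 4sU. No gene passed the BH threshold in any of the 4 comparisons, and the widest bars belong to low-count mitochondrial genes such as Pars2, at 1.14 with an SE of 0.40 at 200 µM in fixed cells.

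Direct comparisons of the doses and of the procedures' 4sU effects in edgeR called 0 of 36 members and 0.0% of all genes in each case. Between 800 and 200 µM in fixed cells the smallest p was that of Vars, with 71.2 and 70.4 CPM at 800 µM against 47.1 and 51.6 CPM at 200 µM (log2 change 0.52, SE 0.16, edgeR adjusted p = 0.518). In tubes it was that of Cars2, with 19.5 and 20.6 CPM at 800 µM against 30.7 and 25.6 CPM at 200 µM (−0.49, SE 0.20, edgeR adjusted p = 0.484). The difference in the 4sU effect, fixed cells minus tubes, was most marked by p for Farsa at 200 µM, at −0.43 (SE 0.19, edgeR adjusted p = 0.519), and for Mars1 at 800 µM, at 0.63 (SE 0.27, edgeR adjusted p = 0.822). At an unadjusted p under 0.05 there were 3 members for the dose step in fixed cells, against 7.87% of all genes, and 2 for that in tubes, against 8.91%. For the difference in effect there were 2 at 200 µM, against 8.96% of all genes, and 2 at 800 µM, against 5.9%. DESeq2 called 0 of 36 members for both dose steps and for the difference in effect at 800 µM, and 0 of 26 at 200 µM. Of all genes it called 0.117% for the dose step in tubes and 0.153% for the difference at 200 µM, and 0 in the rest.

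Of the other genes of the pathway, the scaffolds Aimp1, Aimp2 and Eef1e1 were called in none of the 9 comparisons of counts, by edgeR or DESeq2, and 0 or 1 of the 3 had an unadjusted p under 0.05 in each. Aimp1 had 132 and 128 CPM in fixed cells against 107 and 109 CPM in tubes without 4sU (log2 change 0.26, SE 0.16, edgeR adjusted p = 0.23). Of the 8 enzymes of the multisynthetase complex, 4 were higher in fixed cells than in tubes (Qars, Lars, Rars and Kars), or 50%, and 0 lower, against 16.2% of all genes higher and 15.2% lower. Kars lost its call under the scaling on low-ratio genes (edgeR adjusted p = 0.0898). Of 25 amino acid response genes under ATF4, 6 were higher and 5 lower in fixed cells than in tubes, which is 44% against 31.4% of all genes. Asns, asparagine synthetase, had 229 and 232 CPM in fixed cells against 127 and 121 CPM in tubes (log2 change 0.89, SE 0.12, edgeR adjusted p = 3.4e-05), and Psph, of serine synthesis, was higher by 1.29 (SE 0.19). Slc7a5, a transporter of large neutral amino acids, had 21.2 and 18.4 CPM in fixed cells against 55.3 and 45.6 CPM in tubes (−1.35, SE 0.20). 

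With 4sU in fixed cells, 1 of 25 amino acid response genes (4%) passed at each dose, against 0.812% of all genes at 200 µM and 2.66% at 800 µM. In tubes 1 of 25 (4%) passed at 200 µM, against 3.75% of all genes, and 0 at 800 µM, against 1.87%. For tubes at 800 µM DESeq2 called 0, and 3 genes had an unadjusted p under 0.05, against 17.6% of all genes. Chac1, a glutathione-degrading enzyme, fell in fixed cells, where it had 57.4 and 48.1 CPM without 4sU. It had 26.8 and 28.5 CPM at 200 µM (log2 change −0.93, SE 0.19, edgeR adjusted p = 0.0242). At 800 µM it had 24.6 and 20.7 CPM (−1.22, SE 0.19, edgeR adjusted p = 0.00251). In tubes Chac1 was not called at either dose. For the difference in 4sU effect, fixed cells minus tubes, Chac1 had the smallest p of the list at both doses. There 0 of 25 passed, as did 0.0% of all genes. In tubes at 200 µM Shmt2, of mitochondrial serine use, rose, with 540 and 620 CPM at 200 µM against 408 and 319 CPM without 4sU (log2 change 0.68, SE 0.17, edgeR adjusted p = 0.0367). Of 25 tested genes of mitochondrial tRNA maturation and translation, 0 were called in any comparison with no 4sU by edgeR or DESeq2. The edgeR share of all genes there was 0.812% to 3.75%. At an unadjusted p under 0.05 there were 1 to 4 in each, against 12.6% to 20.8% of all genes. In fixed cells 5 were higher and 1 lower than in tubes, or 24% of them, against 31.4% of all genes. The first by p were Hsd17b10, a subunit of mitochondrial RNase P, with a log2 change of 0.71 (SE 0.14), and Mto1, of tRNA wobble modification, with 1.10 (SE 0.27). Of 14 tested genes of cytosolic tRNA modification, proofreading and export, 0 were called with 4sU by edgeR or DESeq2. At an unadjusted p under 0.05 there were 2 or 3 in each comparison, against the same 12.6% to 20.8% of all genes. Called higher in fixed cells than in tubes were Dph3, needed for tRNA wobble modification, with a log2 change of 0.67 (SE 0.14), and Dtd1, a deacylase of mischarged tRNA, with 0.79 (SE 0.21). That is 14.3% of the list, against 31.4% of all genes called and 16.2% called higher.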

How the data were processed

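Total and new RNA were measured in 12 SLAM-seq libraries of NIH-3T3 cells, 2 in each of 6 groups taken from the labels. The deposited table holds expected counts per gene, per the file headers and values, since 16.2% to 22% of the values of a library were not whole. The authors' new-to-total ratios are fractions, deposited as a MAP value, a mean and quantiles, and printed here as percent. The deposited alpha and beta scores were not tested. Per the submitters' processing notes, STAR 2.7.10b, Bowtie2 2.3.0 and cutadapt were used, in roles not stated. No source used here names the genome build, annotation or counting tool.

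Counts were rounded and filtered with filterByExpr (minimum count 10, minimum total 15). Tests used edgeR 4.0.16 under R 4.3.3 (quasi-likelihood F test, TMM scaling, 1 fit of all groups, BH adjustment over 11080 genes at 0.05). The residual degrees of freedom were 6 and the common biological coefficient of variation 12.3%. Ratios of 5532 genes with at least 100 counts in each labelled library were tested with limma 3.58.1 (trend) on the logit scale. DESeq2 1.42.0, another scaling, no filter, a replicate block and leaving out each library were alternatives. The fits were tested on simulated data. Gene positions, exons and GC content come from GENCODE M21 (GRCm38), by gene ID, and lengths are the deposited ones.

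Members and gene lists were chosen with earlier results of these data known. Values are given for members past the threshold in any comparison, for the 3 with the smallest p in each comparison with no 4sU and in fixed cells against tubes, for the 3 highest and 3 lowest ratios and levels per length in each compartment, and for pairs. For other lists, counts and the first genes by p are given. The overlap of all fixed with all tube libraries was added after the values were seen. Sequences of further promoter matches are not reported here.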

Additional observations from a re-analysis of the deposited data

How the results depend on the processing

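The 10 calls between fixed cells and tubes without 4sU became 16 (5 higher, 11 lower) under the scaling on low-ratio genes, which called 36.9% of all genes (8.6% higher, 28.3% lower), and 7 to 9 with 1 library left out, where 19.3% to 24% of all genes were called. That scaling shifted the median log2 change of all genes by −0.26, and the part of this shift in the rise was not tested. Kars (adjusted p = 0.0898) and Rars2 (0.059) lost their calls under that scaling, and DESeq2 gave Pars2 an adjusted p of 0.0531. The low-ratio scaling also called 1 member, Eprs, lower at 200 µM in tubes, against 4.53% of all genes, and no filter on low counts called 1 member, Mars1, higher at 800 µM in fixed cells, against 5.43% of all genes. With 1 library left out, comparisons without a call in the main fit gained calls of members only without fixed 800 µM library B. That group then rested on library A alone, and other genes passed as well. The comparisons were 800 µM in fixed cells, the doses there and the procedures' difference at 800 µM. For ratios they were the procedures at 800 µM and the doses in fixed cells. The posterior mean of the ratio called 1 member between procedures at 800 µM, against 0.145% of all genes. With it the cytosolic median in tubes at 800 µM was 24.9%, against 24.8% with the MAP value. The mitochondrial median at 200 µM in fixed cells was 30.3%, against 29.4% with the MAP value. With a minimum of 20 counts, or with none, which was added after the data were seen, the mitochondrial median was 37.2% and 37.2% in fixed cells at 800 µM, 44.7% and 45.8% in fixed cells at 200 µM, and 50.4% and 48.7% in tubes at 800 µM, since more genes then entered it. With 100 counts it rests on 3 genes.

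Libraries with the same replicate letter did not deviate together (correlations of −0.104 to 0.0946 over 15 pairs of groups). Such correlations cannot tell whether libraries of a letter shared a culture or handling. With a replicate block, 9 members were called between fixed cells and tubes, without Pars2 (edgeR adjusted p = 0.0538), against 30.3% of all genes. In each comparison with no 4sU 0 of 36 were called, against 0.614% to 2.89% of all genes. Depth limits the low-count mitochondrial genes, with 4 counts of Nars2 in its lowest labelled library.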
